A study of Mus musculus with 9 samples.

Results

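Ribosome biogenesis genes, the 40 mouse genes described here, encode proteins that make ribosomes in the nucleolus. They were chosen by symbol, with no measured value in the rule, though earlier results of these data were known at the time. All 40 were found among the 27179 rows of the count table, and all 40 passed the filter on low counts that left 12484 tested genes. RNA was sequenced from HPC7 cells, a line of mouse blood progenitors, in 3 groups of 3 libraries. In the wild-type Snai1 group the cells carried an MSCV-IRES-GFP retrovirus with the unaltered Snai1 cDNA. In the mutant Snai1 group the same vector held a Snai1 cDNA whose phenylalanine at residue 5 was changed to alanine, a change that impairs binding of the protein Lsd1. The empty vector group received the virus with no added gene. Every group grew in RPMI medium that held 0.05 mM 2-mercaptoethanol, 10% FCS and mouse stem cell factor (100 ng/ml). Cells were sorted for green fluorescence 1 week after transduction. The retroviral promoter of the vector drives Snai1, so the cells hold it far above their own level. Whether replicates came from separate transductions or cultures is not stated, so the p-values below speak of variation among these libraries alone, and that variation may be technical.

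A ribosome begins with the long ribosomal RNA precursor that RNA polymerase I copies in the nucleolus. Small nucleolar RNAs (snoRNAs), carried by box C/D and box H/ACA protein cores, guide the chemical marking of that RNA, and large assembly complexes then cut, fold and load it with ribosomal proteins into a small (40S) and a large (60S) subunit. The genes for this machinery are known as targets of the transcription factor Myc, and in blood progenitors their activity accompanies growth and division. Snai1 is a zinc finger repressor whose first residues recruit Lsd1, a histone demethylase encoded by Kdm1a.

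Total counts lay between 18332451 and 20860314 per library. Levels are given as CPM, the count of a gene scaled to library size, with sizes adjusted by the TMM method. Snai1 stood at 425, 488 and 562 CPM in the wild-type Snai1 libraries and at 471, 415 and 493 CPM in the mutant libraries, against 1.06, 0.722 and 0.698 CPM with empty vector, reads from the vector included. Kdm1a averaged 201 ± 7.55 CPM with wild-type Snai1, 199 ± 2.00 CPM with mutant Snai1 and 200.5 ± 1.21 CPM with empty vector (SD, n = 3 each). All 10 blood progenitor markers looked for were counted in every group, with summed levels of 8414 to 10131 CPM with wild-type Snai1, 8444 to 8752 CPM with the mutant and 8517 to 8788 CPM with empty vector. With wild-type Snai1, 2 of them rose and 4 fell against empty vector, from Runx1 at a log2 fold change of -0.95 to Lmo2 at 1.01. Of 5 tested megakaryocyte markers 2 rose and 2 fell, and both tested lymphoid markers fell. Against empty vector, 3 of 4 tested erythroid markers fell and 1 of 2 tested mast cell markers rose. The summed level of 10 monocyte and macrophage markers was 629 to 942 CPM with wild-type Snai1, 93.2 to 109 CPM with the mutant and 99.6 to 118 CPM with empty vector. Among the 9 tested, 7 rose and 2 fell with wild-type Snai1 against empty vector. Of 10 late neutrophil markers the sum was 64.2 to 144 CPM with wild-type Snai1, 1.20 to 2.5 CPM with the mutant and 1.38 to 2.15 CPM with empty vector. Among the defining ones, Retnlg was at 0 counts in all 3 groups, while S100a8, Ngp and Mmp8 were at 0 in the mutant and empty vector groups. The part of these markers in the results below was not tested. In bulk RNA, fewer cells of a type and less RNA per cell cannot be told apart. A pair of libraries stood apart from their groups. In empty vector replicate 1, a row with no symbol in the annotation took 3.62% of all counts, against 0.101% to 0.280% elsewhere. Wild-type replicate 1 stood apart over all genes, with a chi-square per degree of freedom of 46.3 and 54.8 against wild-type replicates 2 and 3, which gave 5.27 between themselves. Empty vector replicate 1 gave 71.6 and 69.7 against replicates 2 and 3, which gave 4.90. Those values include the row with no symbol, whose part in them was not tested. They are therefore not separate evidence of a difference over all genes. Results that rest on wild-type replicate 1 are given with and without it.

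The machinery was abundant in these cells. Per kilobase of the counted gene length, Ncl (273 RPKM, CPM per kilobase), Npm1 (260.2 RPKM) and Nop58 (250.2 RPKM) were the highest by mean level over the 9 libraries, against a median of 13.7 RPKM over all tested genes. These encode nucleolin, nucleophosmin and a box C/D core protein, which are bulk components of the nucleolus. Noc3l, Polr1e and Utp20 were the lowest, at 9.84, 10.5 and 12.4 RPKM. The first of them had a higher level per length than 41.5% of tested genes. These 3, an assembly factor of each subunit and a polymerase subunit, are also those with the largest changes with wild-type Snai1.

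The effect of Snai1 was read first, as wild-type Snai1 over empty vector. With wild-type Snai1, 6 ribosome biogenesis genes rose and 5 fell, and the other 29 did not pass the test. The 6 that rose were Utp20, Nolc1, Bop1, Polr1a, Rrp12 and Dkc1. Noc3l, Polr1e, Wdr12, Utp14a and Npm1 fell. These 11 of 40 stand beside 49.4% of all tested genes called in the same fit, 25.2% higher and 24.3% lower. A gene was called at an adjusted p under 0.05 in edgeR's quasi-likelihood test, adjusted by the Benjamini-Hochberg method over all tested genes. None of the 40 changed 2-fold, where 12.5% of tested genes were called with at least that size. The median log2 fold change was 0.00 over the 40 and 0.00 over all tested genes. In 10 members all wild-type libraries lay above all empty vector libraries and in 7 they lay below, beside 28.1% and 28.5% of tested genes (56.6% in either direction). Other scalings moved the split of the members and that of all genes the same way. Upper quartile scaling called 2 members higher and 7 lower, beside 2614 and 3607 of all tested genes and an all-gene median of -0.06. Library totals alone called 2 higher and 6 lower, beside 2668 and 3323 and a median of -0.04. Without wild-type replicate 1, 12 members were higher and 4 lower, beside 3779 and 3631 of 12619 tested genes (58.7% called).

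**Figure D1:**
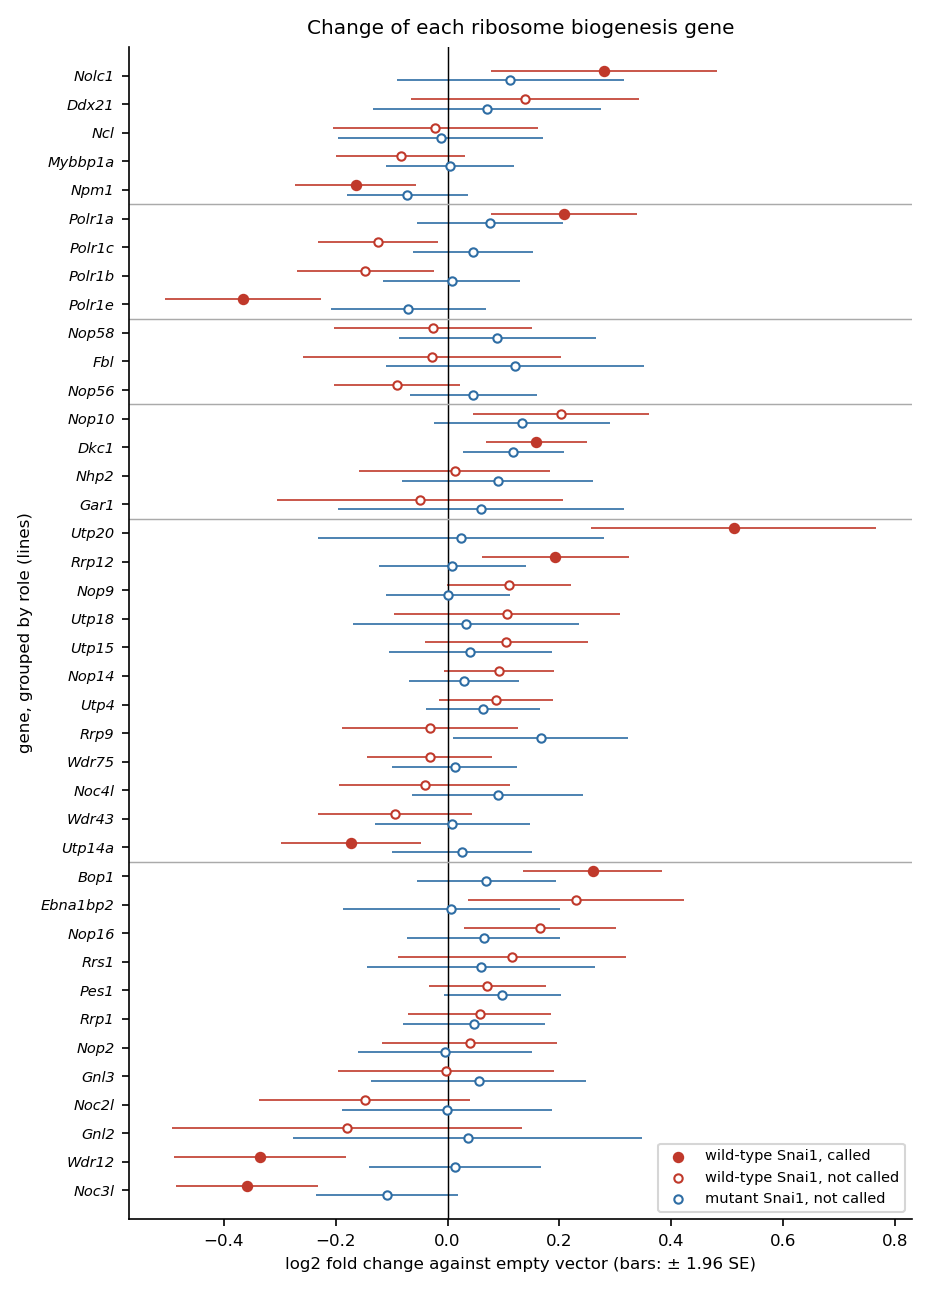
Log2 fold change of each of the 40 genes against empty vector, with bars for the 95% interval, for wild-type Snai1 (red, upper) and mutant Snai1 (blue, lower), grouped by role. Filled points mark the 11 genes called with wild-type Snai1, from -0.37 for Polr1e to 0.51 for Utp20, and with mutant Snai1 no gene was called and all estimates lay within 0.17 of 0.

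The changes were small next to those of other genes. The median size of the change, without its sign, was 0.11 on the log2 scale over the 40 genes, against 0.29 over all tested genes. Over the 6770 genes at least as abundant as the lowest member it was 0.22. Only 6 of the 40 (15%) moved by more than 0.25, against 54.7% of tested genes. For the 29 without a call, the 95% intervals of the log2 fold change lay between -0.49 (Gnl2) and 0.42 (Ebna1bp2).

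**Figure D2:**
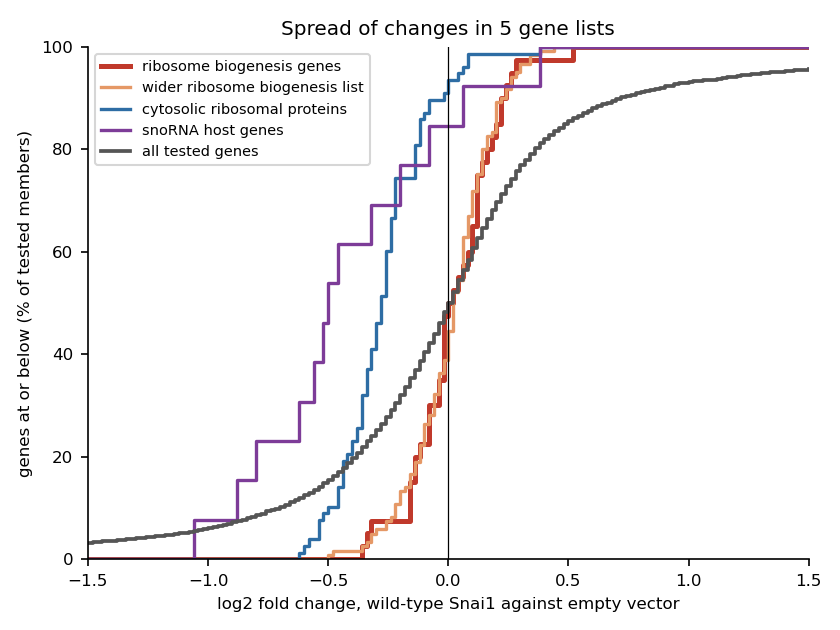
Cumulative share of genes (percent, y axis) at or below each log2 fold change of wild-type Snai1 against empty vector (x axis) for 4 gene lists and all tested genes. The ribosome biogenesis curve (thick red) climbs steeply around 0 with a median of 0.00, the ribosomal protein curve lies to its left with a median of -0.28, and the snoRNA host curve with a median of -0.50.

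Among the nucleolar scaffold proteins and cofactors of ribosomal RNA synthesis, 1 of 5 rose, 1 fell and 3 did not pass the test. Nolc1, a phosphoprotein that escorts snoRNA particles, had 217, 278 and 297 CPM with wild-type Snai1, 228, 223 and 254 CPM with mutant Snai1, and 224, 211 and 218 CPM with empty vector. Wild-type replicates 2 and 3 were above every other library, while wild-type replicate 1 lay inside the empty vector range. Its log2 fold change against empty vector was 0.28 (SE 0.10, adjusted p 0.0456), and 0.40 without wild-type replicate 1. The call was lost when any 1 of the other 8 libraries was left out, with adjusted p of 0.0522 to 0.130. Npm1, the nucleolar histone chaperone and scaffold nucleophosmin, had 407, 423 and 433 CPM with wild-type Snai1, 427, 441 and 478 CPM with the mutant, and 467, 469.7 and 478 CPM with empty vector. All wild-type libraries were below all empty vector libraries, and the mutant libraries overlapped both groups. It fell by 0.16 (SE 0.06, adjusted p 0.0305), a call lost without wild-type replicate 2 or empty vector replicates 2 or 3 (adjusted p 0.0644 to 0.0836). Npm1 has processed pseudogenes, so its reads are uncertain. Ncl, the nucleolin gene and the highest of the 40, had 1885, 2380.3 and 2441 CPM with wild-type Snai1 and 2192, 2253 and 2363 CPM with empty vector. Its wild-type libraries spanned the whole control range (log2 fold change -0.02, SE 0.09, adjusted p 0.866). Mybbp1a, a Myb-binding protein that acts in ribosomal RNA synthesis and processing, had 402, 443 and 454 CPM with wild-type Snai1, 464, 442 and 474 CPM with the mutant, and 456, 449.6 and 471 CPM with empty vector. Its groups overlapped, and wild-type replicate 1 was the lowest library (log2 fold change -0.08, SE 0.06, adjusted p 0.264). It overlaps the gene Spns2, which fell (log2 fold change -0.80). In all, 15 of the 40 genes overlap another annotated gene.

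**Figure D3:**
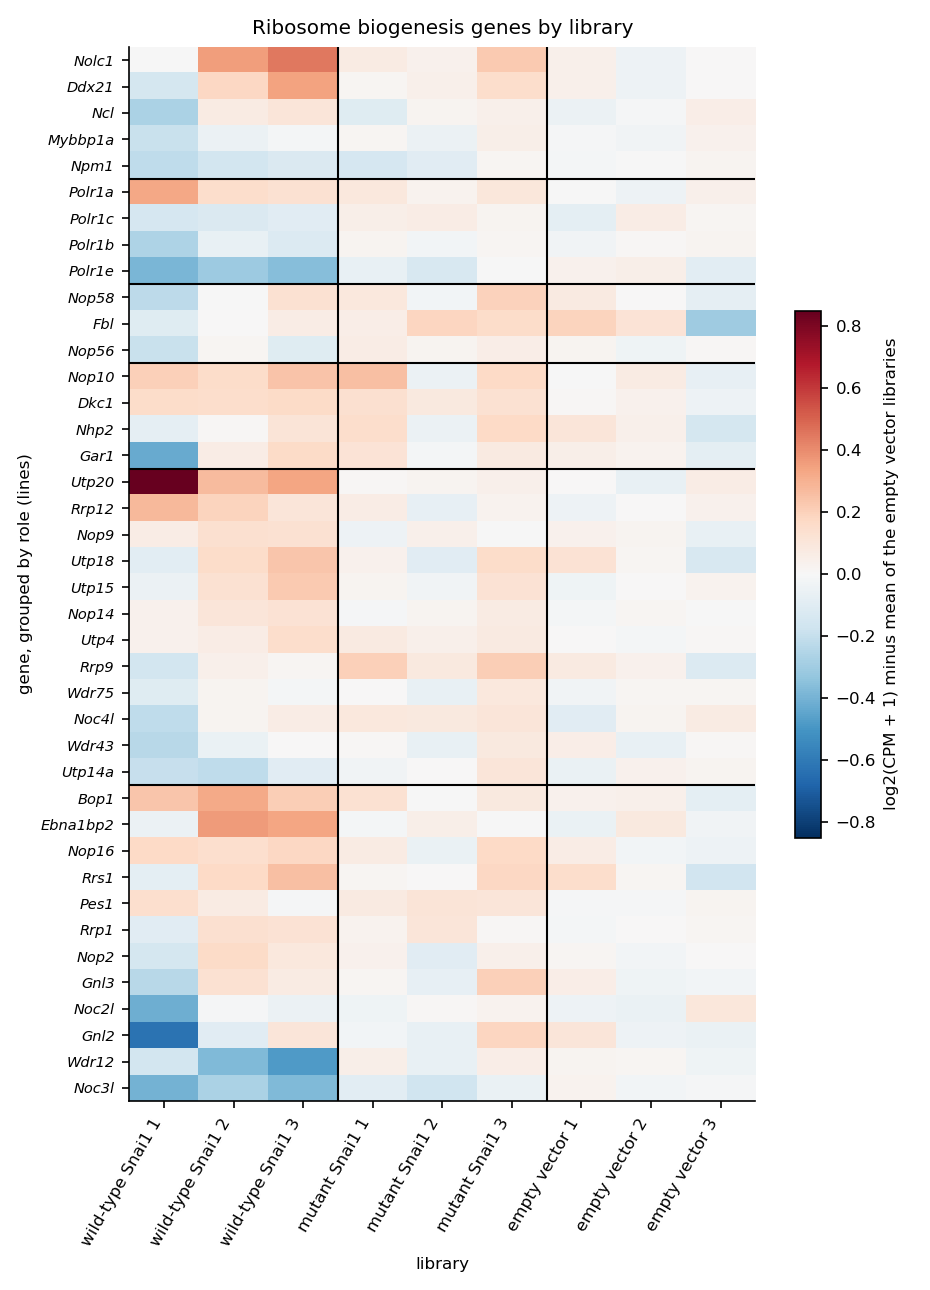
Log2(CPM + 1) of each gene in each library, minus the mean of the empty vector libraries, in the order wild-type Snai1, mutant Snai1 and empty vector. Wild-type replicate 1 is the lowest of the wild-type libraries for 30 of the 40 genes, while Polr1e, Wdr12 and Noc3l are below the controls and Utp20, Bop1 and Polr1a above them in all 3 wild-type libraries.

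Of the 4 RNA polymerase I subunits, 1 rose, 1 fell and 2 did not pass the test. Polr1a encodes the largest catalytic subunit and had 92.7, 81.5 and 80.2 CPM with wild-type Snai1, 78.4, 75.1 and 78.7 CPM with the mutant, and 73.3, 71.2 and 75.8 CPM with empty vector. All wild-type libraries were above all others, with wild-type replicate 1 highest. It rose, at 0.21 in log2 units (SE 0.07, adjusted p 0.0248), a call lost without empty vector replicate 1 or 2 (adjusted p 0.0778 and 0.0922). Polr1e, a peripheral subunit that helps the enzyme start and elongate, had 25.8, 27.4 and 26.3 CPM with wild-type Snai1, 32.5, 31.0 and 34.0 CPM with the mutant, and 35.0, 35.3 and 32.0 CPM with empty vector. The wild-type libraries formed a tight cluster below all 6 others. Its log2 fold change was -0.37 (SE 0.07, adjusted p 0.00175), and it was called under all 19 alternative settings. Polr1e overlaps the gene Fbxo10, which fell too (log2 fold change -0.66, adjusted p 0.00760). How reads of overlapping genes were assigned is not given in the sources used here, and the part of such reads was not tested.

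Polr1b, the second largest subunit, had 64.6, 74.4 and 71.5 CPM with wild-type Snai1, 79.1, 76.5 and 78.7 CPM with the mutant, and 76, 78.2 and 78.8 CPM with empty vector. Polr1c, a subunit shared with RNA polymerase III, had 78.9, 80.0 and 81.4 CPM with wild-type Snai1, 90.2, 91.3 and 88.7 CPM with the mutant, and 82.4, 91 and 88.4 CPM with empty vector. Both had all wild-type libraries below all controls without passing the test, at log2 fold changes of -0.15 (SE 0.06, adjusted p 0.0750) and -0.12 (SE 0.05, adjusted p 0.0857). Taken as a ratio of CPM within each library, which no scaling of the library changes, Polr1a over Polr1e was 3.60, 2.98 and 3.05 with wild-type Snai1, 2.41, 2.42 and 2.31 with the mutant, and 2.09, 2.02 and 2.37 with empty vector. This ratio was chosen after the values were seen and is given as a description. The wild-type mean was 1.49 times that of empty vector.

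None of the 3 box C/D proteins passed the test with wild-type Snai1. Fbl, the methyltransferase fibrillarin, had 36.5, 39.3 and 41.1 CPM with wild-type Snai1, 40.9, 44.7 and 44 CPM with the mutant, and 44.9, 42.6 and 31.6 CPM with empty vector. Empty vector replicate 3 was the lowest of the 9 libraries. Nop56 and Nop58 are the paired scaffold proteins of the same particle. Nop56 had 205, 236 and 217 CPM with wild-type Snai1, 243, 238 and 242 CPM with the mutant, and 237, 228 and 236 CPM with empty vector. Nop58 had 418, 486 and 531 CPM with wild-type Snai1, 518, 479 and 557 CPM with the mutant, and 513, 487 and 461 CPM with empty vector. All 3 genes overlapped between wild-type Snai1 and empty vector, with log2 fold changes from -0.09 to -0.03 (adjusted p 0.221 to 0.861). Of the 4 box H/ACA proteins, 1 rose and 3 did not pass the test. Dkc1, the pseudouridine synthase dyskerin, had 161, 160.2 and 162 CPM with wild-type Snai1, 159, 153 and 158 CPM with the mutant, and 145, 148 and 139.7 CPM with empty vector. Both Snai1 groups were above all empty vector libraries. The log2 fold change with wild-type Snai1 was 0.16 (SE 0.05, adjusted p 0.0159), and the call was lost without empty vector replicate 1 or 3 (adjusted p 0.0552 and 0.0599). The gene overlaps Mpp1, which averaged 144 CPM with wild-type Snai1, 44.4 CPM with the mutant and 43.8 CPM with empty vector, and the part of its reads in the Dkc1 count was not tested. Nop10, a small core protein, had 83.3, 80.4 and 85.5 CPM with wild-type Snai1, 86.4, 69.7 and 81.4 CPM with the mutant, and 72.1, 75.7 and 68.8 CPM with empty vector. The wild-type libraries were above the controls and within the mutant range, and its log2 fold change of 0.20 (SE 0.08) had an adjusted p of 0.0584. Gar1, another core protein, had 41.5, 58.8 and 63.1 CPM with wild-type Snai1, 61, 55.7 and 59.5 CPM with the mutant, and 58.3, 57.6 and 53.2 CPM with empty vector. Wild-type replicate 1 was the lowest library and wild-type replicate 3 the highest. In all, 6 members, among them Ncl, Nop56, Nop58 and Dkc1, hold snoRNA genes within their introns or span, 18 in all, and their log2 fold changes with wild-type Snai1 ran from -0.09 to 0.16.

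Of 12 genes for the small subunit processome and 40S maturation, 2 rose, 1 fell and 9 did not pass the test. Utp20, a very large scaffold protein of the early precursor, had the largest change of the 40. It had 172, 115 and 120.5 CPM with wild-type Snai1, 95.9, 96.7 and 97.9 CPM with the mutant, and 95.5, 91.0 and 99.3 CPM with empty vector. All wild-type libraries were above all others, and wild-type replicate 1 stood far above replicates 2 and 3. The log2 fold change was 0.51 (SE 0.13, adjusted p 0.00864), and without wild-type replicate 1 it was 0.31 with an adjusted p of 0.000116. The counted length of Utp20, 8831 bases, is the longest among the members. Rrp12, which in yeast aids export of both subunits, had 63.4, 59.8 and 56.1 CPM with wild-type Snai1, 54.7, 49.8 and 53.4 CPM with the mutant, and 50.7, 52.5 and 53.7 CPM with empty vector. The wild-type libraries were above all others by a narrow margin, and the gene rose by 0.19 (SE 0.07, adjusted p 0.0348). Utp14a, the human counterpart of which belongs to the processome, had 50.7, 50.2 and 54.5 CPM with wild-type Snai1, 57.1, 58.4 and 62.6 CPM with the mutant, and 56.0, 59.8 and 59.2 CPM with empty vector. It was below both other groups in all 3 wild-type libraries and fell by 0.17 (SE 0.06, adjusted p 0.0457). The Rrp12 call was lost without any of wild-type replicates 1 and 2, mutant replicate 3 or empty vector replicates 1 to 3 (adjusted p 0.0526 to 0.130). The Utp14a call was lost without any of wild-type replicates 1 and 2, mutant replicates 1 to 3 or empty vector replicates 2 and 3 (adjusted p 0.0510 to 0.138). Wdr43, the most abundant of this set, had 279, 317 and 329 CPM with wild-type Snai1, 331, 314 and 348 CPM with the mutant, and 342, 314 and 331 CPM with empty vector, with groups that overlapped (log2 fold change -0.09, SE 0.07, adjusted p 0.298). The other 8 had log2 fold changes from -0.04 to 0.11.

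Of 12 genes for 60S assembly, 1 rose, 2 fell and 9 did not pass the test. Bop1, Pes1 and Wdr12 form the PeBoW complex, which processes the RNA of the large subunit. Bop1 had 90.4, 95.9 and 88.8 CPM with wild-type Snai1, 83.9, 76.2 and 81.1 CPM with the mutant, and 78.7, 79.0 and 72.1 CPM with empty vector. Wdr12 had 156, 134 and 125 CPM with wild-type Snai1, 180.4, 167 and 182 CPM with the mutant, and 177, 176 and 169.9 CPM with empty vector. All wild-type libraries were above all others for Bop1 and below all others for Wdr12. Bop1 rose by 0.26 (SE 0.06, adjusted p 0.00626) and Wdr12 fell by 0.33 (SE 0.08, adjusted p 0.00512) on the log2 scale, and both were called under all 19 alternative settings. Pes1, chosen here for its place in the complex, had 118, 113 and 107 CPM with wild-type Snai1, 113, 116 and 115 CPM with the mutant, and 106, 106 and 109 CPM with empty vector, and its wild-type and control libraries overlapped (log2 fold change 0.07, SE 0.05, adjusted p 0.293). The ratio of Bop1 to Wdr12 was 0.578, 0.714 and 0.712 with wild-type Snai1, 0.465, 0.457 and 0.447 with the mutant, and 0.443, 0.448 and 0.424 with empty vector. The wild-type mean was 1.52 times the empty vector mean, again for a ratio picked after the values were seen. Wdr12 overlaps Carf, which fell (log2 fold change -0.29, adjusted p 0.0220). Bop1 overlaps Mroh1, which did not pass the test (log2 fold change 0.20, adjusted p 0.0721). The part of their reads was not tested, and a ratio does not remove it.

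Noc3l, which in yeast pairs with Noc2 to move the large precursor out of the nucleolus, had 32.5, 35.8 and 33.1 CPM with wild-type Snai1, 40.7, 38.5 and 41.6 CPM with the mutant, and 44.4, 42.6 and 43.1 CPM with empty vector. The wild-type libraries were below all others, and the mutant libraries lay below the controls without a call. Its log2 fold change with wild-type Snai1 was -0.36 (SE 0.07), with the smallest adjusted p of the 40 (0.00114) and a call under all 19 alternative settings. No annotated gene overlaps Noc3l. Rrp1, the most abundant 60S factor, had 199, 233 and 231 CPM with wild-type Snai1, 217, 228 and 214 CPM with the mutant, and 209.7, 213 and 215 CPM with empty vector, with wild-type replicate 1 below the controls and replicates 2 and 3 above them (log2 fold change 0.06, SE 0.07, adjusted p 0.489). The remaining 7, among them the GTPases Gnl2 and Gnl3, had log2 fold changes from -0.18 to 0.23.

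**Figure D4:**
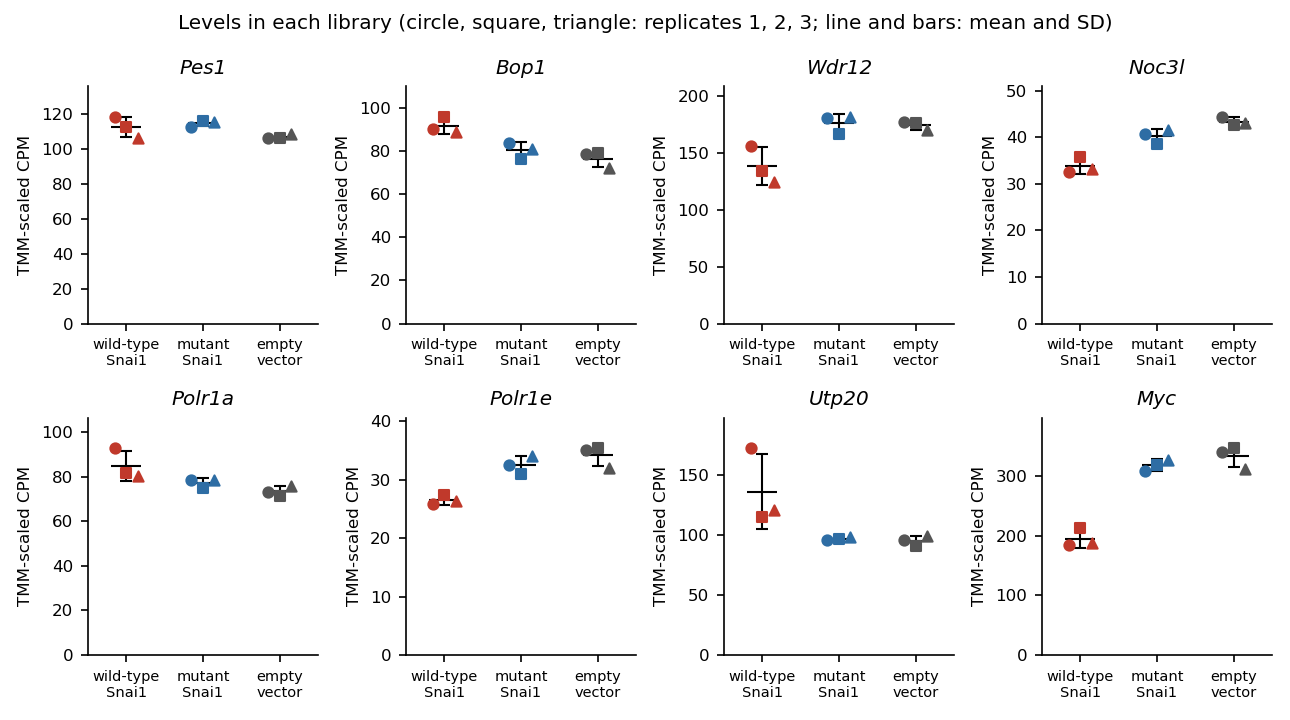
CPM of 7 ribosome biogenesis genes and Myc in each library, with the mean and SD of 3 libraries a group, for wild-type Snai1, mutant Snai1 and empty vector. The wild-type libraries lie apart from both other groups for Bop1, Wdr12, Noc3l, Polr1a, Polr1e and Utp20 and overlap them for Pes1, and Myc averages 195 CPM with wild-type Snai1 against 333 CPM with empty vector.

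The second comparison asks what Snai1 does when its Lsd1-binding residue is changed, and it shares the empty vector libraries with the first. No ribosome biogenesis gene passed the test between mutant Snai1 and empty vector, where 0.00801% of tested genes did, which is 1 gene, Snai1 itself. By edgeR 1 member, Dkc1, had an unadjusted p under 0.05 (log2 fold change 0.12, SE 0.05, adjusted p 0.980), and DESeq2 and limma voom called 0. The largest change was 0.17 on the log2 scale, for Rrp9, which encodes a protein of the U3 snoRNA particle. Rrp9 averaged 48.8 ± 2.43 CPM with mutant Snai1 and 43.5 ± 3.05 CPM with empty vector. The 95% intervals of all 40 log2 fold changes lay between -0.28 and 0.35. Estimates were above 0 for 34 of the 40, with a median of 0.04, beside 6003 of 12484 tested genes and a median of 0.00 over them. They were above 0 for 35 of 40 DNA replication genes as well. Relative to the empty vector mean, the median of the 40 was 0.03, -0.003 and 0.08 in mutant replicates 1 to 3, on the log2(CPM + 1) scale. In 6 members all mutant libraries lay above all controls and in 1 they lay below, beside 8.53% and 9.04% of tested genes. Between the wild-type and mutant groups the Snai1 transcript itself did not pass the test (log2 fold change 0.10, SE 0.11, adjusted p 0.479).

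Wild-type Snai1 was then set against mutant Snai1 directly, which tests the difference between the vectors. Here 3 members were higher with wild-type Snai1 and 5 lower, with 47.9% of tested genes called, 24.5% higher and 23.4% lower. The higher ones were Utp20 (log2 fold change 0.49, SE 0.13, adjusted p 0.0113), Bop1 (0.19, SE 0.06, adjusted p 0.0295) and Rrp12 (0.18, SE 0.07, adjusted p 0.0426). Lower were Wdr12 (-0.35, SE 0.08, adjusted p 0.00422), Polr1e (-0.30, SE 0.07, adjusted p 0.00627), Noc3l (-0.25, SE 0.07, adjusted p 0.00926), Polr1c (-0.17, SE 0.05, adjusted p 0.0263) and Utp14a (-0.20, SE 0.06, adjusted p 0.0264). In 6 members all wild-type libraries lay above all mutant libraries and in 9 below, beside 27.5% and 28.3% of tested genes (55.8% in either direction). Upper quartile scaling gave 1 higher and 10 lower, beside 2526 and 3540 of all tested genes. Library totals alone gave 1 and 9, beside 2456 and 3434, and both scalings put the all-gene median at -0.07. Without wild-type replicate 1 there were 6 higher and 5 lower, beside 3748 and 3560 of all genes (57.9% called). Leaving out 1 library ended the call of Bop1 for 4 libraries (empty vector replicate 1, wild-type replicate 2, mutant replicates 2 and 3, adjusted p 0.0516 to 0.106), of Polr1c for 5 (wild-type replicates 2 and 3 and each mutant replicate, 0.0514 to 0.0711), of Utp14a for 2 (wild-type replicate 2 and mutant replicate 3, 0.0848 and 0.104) and of Rrp12 for each library but wild-type replicate 3 (0.0587 to 0.143). For Utp20 and Nolc1 the values without wild-type replicate 1 were 0.28 and 0.29, and Nolc1 then passed the test (adjusted p 0.000458). The comparisons with empty vector and with the mutant share the wild-type libraries, and 7 genes were called the same way in both. Nolc1, Npm1, Polr1a and Dkc1 were called against empty vector, but their difference between wild-type and mutant Snai1 did not pass the test, with log2 fold changes of 0.17, -0.09, 0.13 and 0.04 and adjusted p of 0.212, 0.196, 0.126 and 0.494.

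Wild-type replicate 1 had lower levels of most ribosome biogenesis genes than the other wild-type libraries. Relative to the empty vector mean, the median of the 40 genes was -0.12, 0.07 and 0.11 in wild-type replicates 1, 2 and 3, and 0.03, 0.00 and 0.08 in the mutant libraries, on the log2(CPM + 1) scale. The 40 genes together took 0.689%, 0.794% and 0.803% of the counts in wild-type replicates 1 to 3, 0.794% to 0.839% in the mutant libraries and 0.760% to 0.801% with empty vector. Replicate 1 was the lowest wild-type library for 30 of the 40 genes (75%), against 43.7% of all tested genes. The same held for 32 of 40 DNA replication genes (80%) and 85 of 121 further biogenesis factors (70.2%). For 7 members (17.5%), it lay below all controls while replicates 2 and 3 lay above them, against 15.7% of the further factors, 10% of the DNA replication genes and 4.78% of tested genes. Mutant replicate 2 was likewise below the mean of its group's other libraries for 32 of the 40 genes, beside 47.6% of all tested genes. Wild-type replicate 1 was below that mean for 32 too, beside 50.1%, and mutant replicate 3 for 4, beside 50.2%. The median deviation from that mean was -0.09 in mutant replicate 2, 0.07 in mutant replicate 3 and -0.14 in wild-type replicate 1. Across all tested genes, deviation from the mean of the group's other libraries was set against counted gene length. Spearman's rho was 0.12, -0.12 and -0.09 in wild-type replicates 1 to 3. It was -0.28, 0.30 and -0.11 in mutant replicates 1 to 3, and -0.13, -0.23 and 0.29 in empty vector replicates 1 to 3. The part of length in these values was not tested. The gaps between replicate 1 and the mean of the other two were widest for the GTPase gene Gnl2 (-0.63) and for Gar1 (-0.54), and in the other direction for Utp20 (0.54). Gnl2 had 93.1, 135 and 156 CPM with wild-type Snai1, against 156, 140.2 and 139 CPM with empty vector. These patterns were picked after the values were seen and no test was made of them. Without this library, Ebna1bp2, a 60S factor known as a partner of a viral nuclear antigen, was called at 0.35 (SE 0.06, adjusted p 4.23e-05). The RNA helicase gene Ddx21 was called at 0.26 (SE 0.06, adjusted p 0.00111). Nop10, Rrp1, Rrs1, Utp15 and Utp18 were called higher as well, Rrp12 and Utp14a lost their calls, and 9 of the 11 calls were kept. Ebna1bp2 overlaps Cfap57, which rose in the fit of all 9 libraries (log2 fold change 0.32, adjusted p 0.0311). The part of its reads in the Ebna1bp2 count was not tested. Summed levels of the tested markers also set replicate 1 apart for several cell types. Progenitor markers summed to 10131, 8546 and 8414 CPM in wild-type replicates 1 to 3, and megakaryocyte markers to 786, 1147 and 1133 CPM. The stromal and fibroblast marker that was tested stood at 320.1, 427 and 410.2 CPM. Late neutrophil markers, at 63.4, 99.5 and 143 CPM, differed among all 3 libraries, with replicate 1 lowest but not set apart. For monocyte and macrophage markers, at 671, 628 and 941 CPM, replicate 1 lay between the others. The part of these markers in the pattern was not tested.

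**Figure D5:**
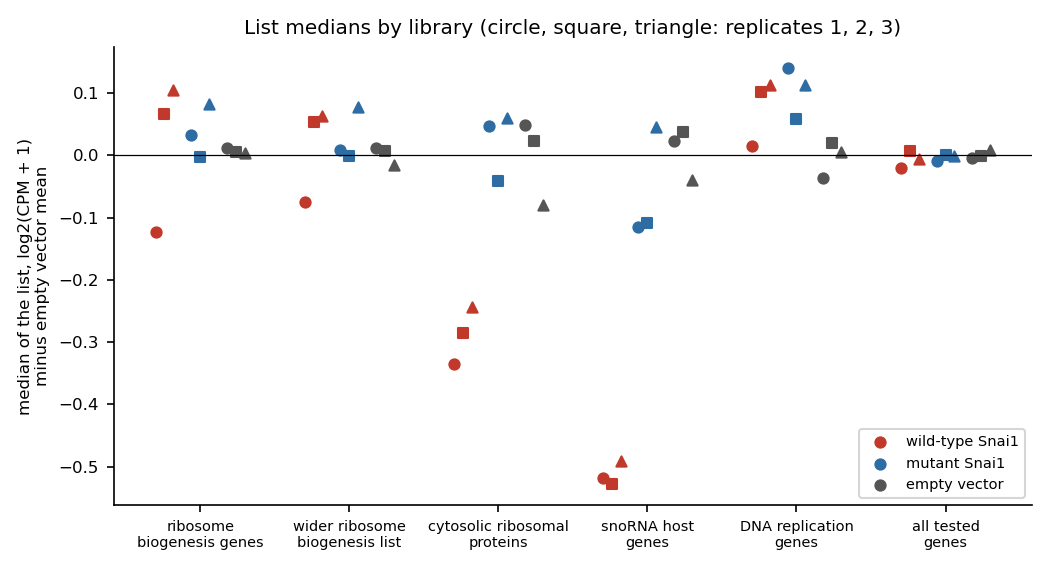
Median of each gene list in each library, as log2(CPM + 1) minus the empty vector mean, for wild-type Snai1 (red), mutant Snai1 (blue) and empty vector (grey). Ribosome biogenesis genes are at -0.12, 0.07 and 0.11 in the wild-type libraries, and ribosomal protein and snoRNA host genes are below 0 in all 3 of them.

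A wider list held 121 other biogenesis factors. With wild-type Snai1, 15 rose (12.4%) and 16 fell (13.2%) with a median log2 fold change of 0.02, beside 25.2% and 24.3% of all tested genes. Against mutant Snai1 10 were higher (8.26%) and 21 lower (17.4%), beside 24.5% and 23.4%. Between mutant Snai1 and empty vector edgeR called 0, with 2 at an unadjusted p under 0.05. Of 12 polymerase I factors, 2 rose and 3 fell. Rrn3, the initiation factor that charges the enzyme, averaged 141 ± 3.19 CPM with wild-type Snai1 and 118 ± 6.57 CPM with empty vector (log2 fold change 0.26, adjusted p 0.00558). Taf1c, a subunit of the promoter selectivity factor SL1, averaged 25.5 ± 1.55 CPM against 35.7 ± 0.837 CPM (-0.49, adjusted p 0.000409). Of 43 further small subunit factors 5 rose and 5 fell, with Dcaf13 at 0.33 and Nat10, the ribosomal RNA acetyltransferase, at -0.35. Of 45 large subunit factors 6 rose and 5 fell, with Pak1ip1 at 0.43, Ddx24 at 0.37 and Nop53 at -0.34. Among 15 exonuclease genes 2 rose and 2 fell, with Dis3 at 0.25 and Exosc4 at -0.51. Of 6 genes for snoRNA particle assembly, Ruvbl1 fell (-0.23). Without wild-type replicate 1, 39 of the 121 were higher and 14 lower, and upper quartile scaling gave 7 higher and 25 lower. The counts over all tested genes under these settings are those given above for the 40 genes.

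Other gene programs of growing cells were read in the same libraries. Over all tested genes, 25.2% rose and 24.3% fell with wild-type Snai1 against empty vector. Of 78 tested cytosolic ribosomal protein genes, whose products are the ribosome itself, 42 fell (53.8%) and 0 rose, and the median log2 fold change was -0.28. Rps20 averaged 248 ± 6.49 CPM with wild-type Snai1 and 363 ± 22.5 CPM with empty vector. These genes have many pseudogenes, so their reads are uncertain. Of 13 tested snoRNA host genes, which hold snoRNAs in their introns, 8 fell (61.5%) and 1 rose (7.69%), with a median of -0.50. Snhg7 averaged 10.9 ± 1.13 CPM with wild-type Snai1 and 22.9 ± 0.861 CPM with empty vector. Of 40 DNA replication genes 17 rose (42.5%) and 4 fell (10%), with a median of 0.05, with Fen1, a flap endonuclease, at 0.55. No test of the difference between these lists and the 40 genes was made. Myc had 184, 214 and 188 CPM with wild-type Snai1, 308, 318 and 327 CPM with the mutant, and 340.4, 346 and 312 CPM with empty vector. It fell by 0.77 (SE 0.07, adjusted p 1.01e-05) against empty vector, and the part of Myc in the values of the 40 genes was not tested.

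Promoter letters were read because Myc binds, as background, the hexamer CACGTG, and Snai1 the related hexamer CAGGTG. RefSeq windows on GRCm38.p6, from 250 bases before to 50 after a gene's start, were at hand for 34 of the 40 genes. Both strands were searched, and no match of one motif overlapped another. CACGTG, the same on both strands, was present in 7 of 34 windows (20.6%), against 11.8% of 9568 tested genes with a window and 8.09% of all 27025 windows. CAGGTG or its complement CACCTG was present in 0 of 34 windows, against 20.3% and 22.6%. CCGGAAG or CTTCCGG, a core of ETS factor sites, was present in 11 of 34 (32.4%), against 21.0% and 9.93%. Shown whole are the windows of Utp20, the member with the largest rise, and of Polr1e and Noc3l, those with the largest falls. Capitals mark CACGTG in Utp20 and CTTCCGG in the other two. The Noc3l window lies inside that gene's annotated span.
Utp20 (chr10:88826765-88827064, minus strand): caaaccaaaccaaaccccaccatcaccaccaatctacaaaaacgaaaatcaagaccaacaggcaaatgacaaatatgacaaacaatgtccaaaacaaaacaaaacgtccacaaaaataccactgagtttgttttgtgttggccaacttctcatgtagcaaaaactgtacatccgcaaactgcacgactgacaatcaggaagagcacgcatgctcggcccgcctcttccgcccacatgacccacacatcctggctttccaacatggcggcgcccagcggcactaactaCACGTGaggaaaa
Polr1e (chr4:45018359-45018658, plus strand): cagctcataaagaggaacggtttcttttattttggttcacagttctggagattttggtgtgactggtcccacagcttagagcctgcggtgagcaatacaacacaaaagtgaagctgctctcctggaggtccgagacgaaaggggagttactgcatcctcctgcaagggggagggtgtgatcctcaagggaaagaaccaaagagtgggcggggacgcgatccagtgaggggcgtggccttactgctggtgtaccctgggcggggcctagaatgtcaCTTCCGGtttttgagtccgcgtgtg
Noc3l (chr19:38819188-38819487, minus strand): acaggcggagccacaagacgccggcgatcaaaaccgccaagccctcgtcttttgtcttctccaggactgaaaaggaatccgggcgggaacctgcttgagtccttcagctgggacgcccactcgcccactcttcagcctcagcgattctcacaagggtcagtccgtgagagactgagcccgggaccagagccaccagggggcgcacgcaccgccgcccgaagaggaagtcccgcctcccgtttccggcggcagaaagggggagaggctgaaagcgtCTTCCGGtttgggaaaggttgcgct

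The 6 other windows with CACGTG belonged to Mybbp1a, Nop2, Pes1, Utp18, Utp4 and Wdr43. None of these 6 passed the test with wild-type Snai1, at log2 fold changes of -0.09 (Wdr43) to 0.11 (Utp18), while Utp20 rose as given above. Up to 10 bases on each side are shown in gene direction, to let the flanks be compared, with the hexamer in capitals.
Mybbp1a (chr11:72441357-72441376, plus strand): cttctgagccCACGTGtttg
Nop2 (chr6:125131813-125131838, plus strand): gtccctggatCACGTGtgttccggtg
Pes1 (chr11:3963967-3963992, plus strand): ctaggcagggCACGTGcgggaggaag
Utp18 (chr11:93885771-93885796, minus strand): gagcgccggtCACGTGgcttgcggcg
Utp4 (chr8:106893645-106893670, plus strand): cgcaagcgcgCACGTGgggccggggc
Wdr43 (chr17:71616222-71616247, plus strand): cccgggcgaaCACGTGgctgccgcgg
A match describes the letters of a window, not a bound site.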

How the data were processed

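Raw counts per Entrez gene were deposited by the authors, made with featureCounts on mm10 per the submitters' processing notes, which also name edgeR 3.15.0 and limma 3.29.12. Libraries came from a TruSeq stranded mRNA kit, per the labels' protocols. The aligner, the gene annotation and the strand setting are not given in the sources used here. Symbols came from RefSeq GRCm38.p6 for 25275 of 27179 rows.

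Counts were analysed in R 4.3.3 with edgeR 4.0.16: filterByExpr, TMM scaling, and 1 robust quasi-likelihood fit of all 9 libraries with no covariate. P-values were adjusted over 12484 genes by the Benjamini-Hochberg method with a threshold of 0.05. Ranges around an estimate are ± 1.96 SE, which is narrower than a 95% interval at the 6 residual degrees of freedom of the fit. Library plots used log2 with a pseudocount of 1. Alternatives used other scalings and filters, DESeq2 1.42.0, limma voom 3.58.1, a replicate block, only 2 groups, and each library left out. Leaving out wild-type replicate 1 with empty vector replicate 1 was added after the data were seen.

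The members, lists and markers were chosen with earlier results of these data known. By the rule for named genes, values per library are given for the 3 members of each role group with the smallest adjusted p for wild-type Snai1 against empty vector, for its most abundant member, and for up to 6 called members with the smallest adjusted p in each other comparison. Up to 2 called genes a direction are named from each other list, with Snai1, Kdm1a and Myc. Pes1, Gnl2, Rrp9, Ebna1bp2, Ddx21 and the ratios were picked after their values were seen. Replicate pairs differed by more than sampling noise.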

Additional observations from a re-analysis of the deposited data

How the results depend on the processing

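Over 2280 refits of the 40 genes' log2 fold changes (19 alternatives, 3 comparisons), 2161 kept their side of the threshold, 80 lost a call, 39 gained one and 0 changed direction with a call. Polr1e, Wdr12, Noc3l and Utp20 were called under all 19 alternatives against both empty vector and mutant Snai1. Called members of wild-type Snai1 against empty vector numbered 7 with no filter and 6 to 16 as each library was left out, and 4 to 11 against mutant Snai1. All tested genes moved too, with 5106 to 7410 calls against empty vector and 4978 to 7308 against mutant Snai1 as each library was left out. For the wider list the counts against empty vector were 20 with only the 2 groups, 47 without wild-type and empty vector replicate 1 and 17 to 53 with 1 library left out. Against mutant Snai1 they were 20, 54 and 14 to 60. Over all genes, mutant Snai1 against empty vector gave 10 calls with DESeq2, 2 with limma voom, 30 with only the 2 groups, 29 without wild-type and empty vector replicate 1, and 1 to 62 with 1 library left out. The cause was not tested. The median log2 fold change of the 40 genes, wild-type Snai1 against empty vector, stayed between -0.06 and 0.10.

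Replicate numbers gave no clear pairing of the libraries. In 4 of 9 libraries the closest correlate bore the same number. A correlation over 0.1 was seen in 2 of 9 same-number pairs, against 4 of 18 other pairs. The highest was a same-number pair, wild-type with mutant replicate 3 (0.28), and a shared preparation by number was not tested. With the replicate block, wild-type Snai1 against empty vector gave 10 members, 25 of the wider list and 5886 genes over all. Wild-type against mutant Snai1 gave 7, 27 and 5732, and mutant Snai1 against empty vector 0, 0 and 1. Changes of about 0.1 on the log2 scale are near the standard errors, so 3 libraries a group limit what can be seen.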
